A study of Zea mays with 6 samples.

Results

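The 3 genes described here are AP2/ERF transcription factors of spikelet development in maize, branched silkless1 (bd1, Zm00001d022488), indeterminate spikelet1 (ids1, Zm00001d034629) and sister of indeterminate spikelet1 (sid1, Zm00001d019230). They were chosen by identifier and make up 3 of the 45953 features of the count table. The pairing of these identifiers with gene symbols was given with the choice of genes, and the annotation table used here, of another assembly, holds the symbols but not the identifiers. RNA enriched for poly-A tails was sequenced from tassel meristems dissected at a length of 1 mm. The groups were WT plants of the inbred B73 (n = 3 libraries) and plants labelled tassel-less1 (tls1) mutant, cultivar B73 (n = 3 libraries). The labels describe the mutant as boron deficient, and both groups had the same growing conditions and fertilizer, with 238 ppm nitrogen and 0.08 ppm boron. No allele, number of plants per library or meaning of the replicate numbers is given, so the p-values measure the spread between libraries, which may be technical.

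The tassel is the male inflorescence of maize. Its meristem forms branch meristems, then spikelet pair meristems and spikelet meristems, and each spikelet meristem ends by making florets. AP2/ERF proteins bind DNA through the AP2 domain: bd1 is of the ERF type, while ids1 and sid1 are of the AP2 type with repeated AP2 domains. In maize, bd1 gives the spikelet meristem its identity, and without it branches form in place of spikelets. ids1 makes the spikelet meristem determinate, so that it stops after forming its florets, and sid1 is its close relative with an overlapping role. The RNAs of ids1 and sid1 carry sites for the microRNA miR172, one source of which is the tasselseed4 gene.

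In these meristems ids1 and sid1 were well expressed, the identifier given for bd1 held almost no reads, and no difference between the genotypes passed the test. By a small amount, ids1 lay higher in every tls1 library than in any WT library, a separation seen for 11.3% of all tested genes. sid1 overlapped between the genotypes, and its lower mean in tls1 rested on library 3. Of the 2 genes that could be tested, 0 were called by edgeR at an adjusted p under 0.05. That rule called 0.00428% of the 23349 genes tested, which was 1 gene, while 3864 genes (16.5%) had an unadjusted p under 0.05. The unadjusted edgeR p was 0.0623 for ids1 and 0.403 for sid1. DESeq2 called 5.35% of the genes and edgeR with the replicate number as a block 0.694%, and neither called ids1 or sid1.

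Almost no read was assigned to bd1. Its count was 0 in WT 1, WT 2 and WT 3, 0 in tls1 1 and tls1 2, and 1 in tls1 3. The library totals ran from 72498318 to 77619452 counted reads, so a count of 0 allowed a level of up to 0.0414 CPM (counts per 1000000 counted reads, taking 3 counts as the limit, for counting error only). The 1 read in tls1 3 was a level of 0.0134 CPM, with an exact Poisson 95% interval reaching 0.0746 CPM. No fold change is given, since no library had more than 1 read. Such a count is common in the table: 13000 of 43789 nuclear gene identifiers (29.7%) had at most 1 read over the 6 libraries, 11552 of them none. The rows on either side of bd1 were well covered, with 2524 to 3012 reads per library for Zm00001d022487 and 2952 to 3618 for Zm00001d022489. The value limits the reads assigned to this identifier at this depth, and does not show that bd1 RNA was absent from the tissue.

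ids1, the spikelet determinacy factor, was among the more abundant transcripts by read number. Its level was 102.0 CPM in WT 1, 106.3 in WT 2 and 96.6 in WT 3, against 110.3 CPM in tls1 1, 118.9 in tls1 2 and 110.2 in tls1 3. The groups did not overlap: the lowest tls1 library stood above the highest WT library, and library 2 was the highest of each genotype. The WT mean was 101.6 ± 4.85 CPM and the tls1 mean 113.2 ± 5.01 CPM (± SD over 3 libraries), 11.3% higher. A level in tls1 above every WT library was found for 11.3% of all tested genes, so such a separation was common in these data. By edgeR the fold change on the log2 scale was 0.14 ± 0.06 (SE, adjusted p = 0.329), which is 1.10-fold with a 95% interval from 0.994 to 1.21. The exact permutation test on CPM gave p = 0.1 (2-sided), the smallest that 3 against 3 libraries allow, or 0.15 adjusted over 3 such tests.

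**Figure D1:**
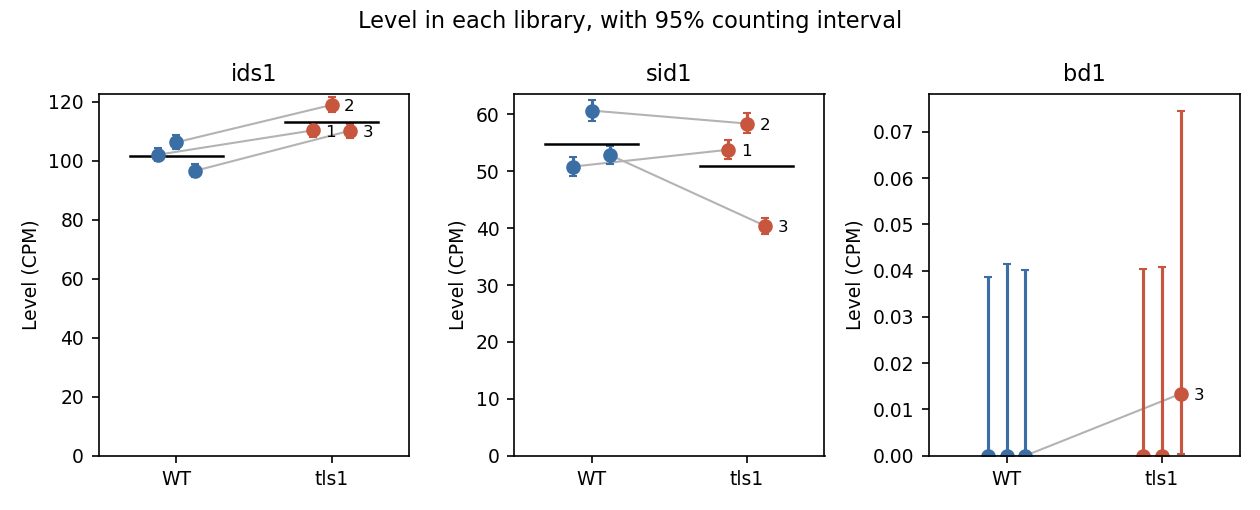
Level of ids1, sid1 and bd1 in CPM (y axis, linear, a scale of its own per gene) in 3 WT and 3 tls1 libraries, with 95% Poisson counting intervals as bars (at a count of 0, up to the limit of 3 counts), group means as black lines and grey lines joining libraries of the same replicate number. The ids1 points of tls1 lie above those of WT, sid1 overlaps with tls1 3 lowest at 40.4 CPM, and bd1 has 1 read in tls1 3 and 0 elsewhere.

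The ids1 difference had the same sign in each same-numbered pair, which follows from the lack of overlap between the groups and is no further evidence. It was 8.10% in pair 1, 11.9% in pair 2 and 14.1% in pair 3, on the CPM scale. Each pair's counting interval excluded 0, from 0.07 to 0.16 on the log2 scale in pair 1, from 0.12 to 0.21 in pair 2 and from 0.15 to 0.24 in pair 3. Counting error was the smaller part of the spread of ids1, at 1.12% of the level, against a coefficient of variation between libraries of 4.78% in WT and 4.42% in tls1. A higher tls1 level within all 3 pairs was seen for 24.6% of the tested genes. With the scaling factors of the edgeR fit applied, the ids1 levels still did not overlap, with 97.4 to 106.9 CPM in WT and 109.2 to 117.8 CPM in tls1, as for 9.86% of the tested genes.

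sid1, the relative of ids1, varied more. Its level was 50.8 CPM in WT 1, 60.7 in WT 2 and 52.9 in WT 3, and 53.8 CPM in tls1 1, 58.4 in tls1 2 and 40.4 in tls1 3. The groups overlapped, with tls1 1 and tls1 2 inside the WT range and tls1 3 below it. The WT mean was 54.8 ± 5.20 CPM and the tls1 mean 50.9 ± 9.36 CPM (± SD over 3 libraries). By edgeR the fold change on the log2 scale was -0.13 ± 0.14 (SE, adjusted p = 0.693), which is 0.915-fold with a 95% interval from 0.721 to 1.16. The exact permutation test on CPM gave p = 0.7 (2-sided, 0.7 after adjustment over the 3 tests). Without tls1 3 the log2 fold change was 0.0065 (edgeR adjusted p = 0.978), so its negative sign rested on that library.

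The pairs of sid1 went different ways. In pair 1 sid1 was 5.82% higher in tls1, and in pair 2 it was lower by 0.06 on the log2 scale, with a counting interval from -0.12 to 0.01. In pair 3 the log2 difference was -0.39, with a counting interval from -0.46 to -0.32. That difference lay at percentile 5.44 of the pair 3 differences of all tested genes, whose median was -0.0004. The ids1 difference of pair 3 lay at percentile 79.3, so in the same library comparison the relatives stood on opposite sides of the median, with ids1 within the bulk of the genes.

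**Figure D2:**
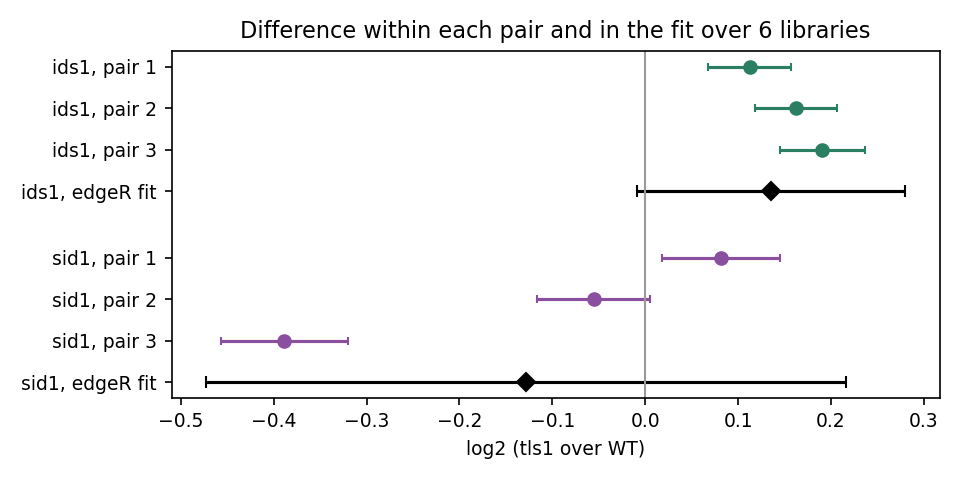
Difference between tls1 and WT on the log2 scale (x axis) for ids1 and sid1, within each same-numbered pair with 95% counting intervals (coloured circles) and in the edgeR fit over all 6 libraries with 95% intervals (black diamonds). All 3 ids1 pairs lie right of 0, the sid1 pairs run from 0.08 to -0.39, and the edgeR interval of each gene includes 0.

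The spread of sid1 between libraries of a genotype was large for its level, and that of ids1 was not. The within-genotype SD of log2 CPM was 0.22 for sid1, against a median of 0.10 among the 3746 tested genes whose mean CPM was within 1.41-fold of it. sid1 exceeded 88.1% of those genes. For ids1 the SD was 0.07, against a median of 0.09 among the 2361 genes near its level, of which it exceeded 26.1%. Counting error of sid1 was 1.59% of its level, while its coefficient of variation was 9.50% in WT and 18.4% in tls1.

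Read against genes of like abundance, ids1 was toward the upper side and sid1 toward the lower side. The 2361 genes near the level of ids1 had a median log2 fold change of -0.08, with the 5th and 95th percentiles at -0.32 and 0.27, and 11.3% of them exceeded the 0.14 of ids1. The 3746 genes near the level of sid1 had a median of -0.03, and 24.9% of them lay below the -0.13 of sid1. By the size of the change regardless of sign both were ordinary. ids1 exceeded 54.3% of the genes near its level and sid1 59.2% of those near its own. By mean CPM over the 6 libraries, ids1 ranked above 90.5% and sid1 above 76.5% of the tested genes. These ranks are by reads and not per transcript length, so they do not compare how many transcripts of each gene were present.

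**Figure D3:**
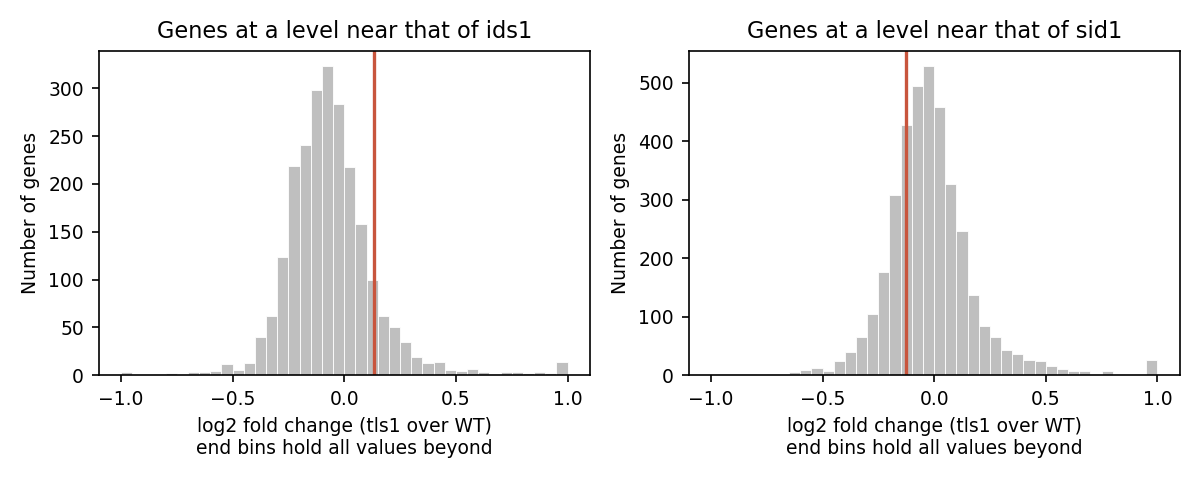
Number of genes (y axis) by log2 fold change of tls1 over WT (x axis, in bins of 0.05, the end bins holding all values beyond) for the genes within 1.41-fold of the mean CPM of ids1 (left) and sid1 (right), with the gene itself as a red line. ids1 at 0.14 lies right of centre, where 11.3% of genes are higher, and sid1 at -0.13 lies left of centre, where 24.9% are lower.

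Since ids1 and sid1 have overlapping roles, their reads were also compared within each library, where library size cancels. Of the reads of both genes, ids1 took 66.7% in WT 1 (exact binomial 95% interval 65.9 to 67.6), 63.6% in WT 2 (62.8 to 64.5) and 64.6% in WT 3 (63.7 to 65.5). In tls1 it took 67.2% in library 1 (66.4 to 68.1), 67.1% in library 2 (66.3 to 67.9) and 73.2% in library 3 (72.4 to 74.0). The tls1 libraries lay above the WT libraries, but tls1 1 and tls1 2 only narrowly above WT 1, within its counting interval, and tls1 3 stood apart. The share averaged 65.0% ± 1.58 over the WT libraries and 69.2% ± 3.49 over the tls1 libraries (± SD). The difference of 4.15 percentage points had an exact permutation p of 0.1 (2-sided, the smallest possible, 0.15 adjusted over the 3 tests), and it was 2.14 points without tls1 3. Within pairs the share was higher in tls1 by 0.472, 3.42 and 8.56 points in pairs 1, 2 and 3.

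**Figure D4:**
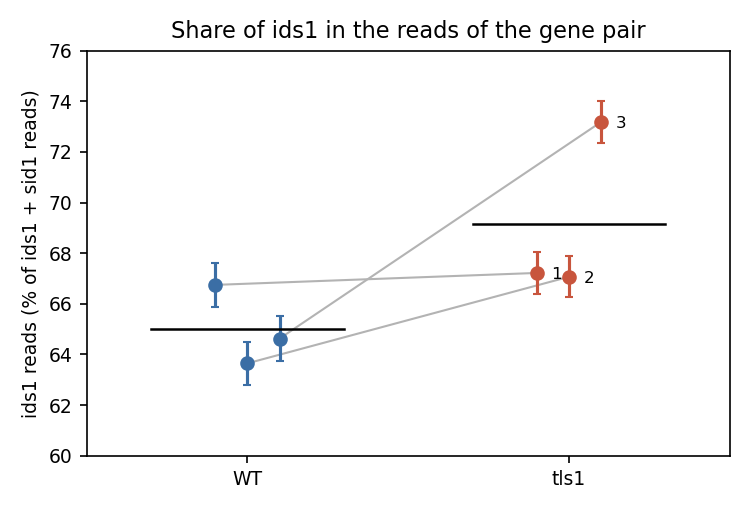
Share of ids1 in the reads of ids1 and sid1 together, in percent (y axis, from 60 to 76), by genotype, with exact binomial 95% intervals as bars, group means as black lines and grey lines joining libraries of the same replicate number. The share of tls1 3, 73.2%, stands apart from the other 5 libraries, which lie between 63.6% and 67.2%.

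The summed level of ids1 and sid1 overlapped between the genotypes. It was 152.9, 167.0 and 149.4 CPM in WT 1, 2 and 3 and 164.1, 177.3 and 150.6 CPM in tls1 1, 2 and 3. There was a WT mean of 156.4 ± 9.28 CPM and a tls1 mean of 164.0 ± 13.4 CPM (± SD over 3 libraries). In pair 3 the sums differed by 1.17 CPM, the higher ids1 and the lower sid1 nearly cancelling in that pair. Library 2 held the highest sum of each genotype, as it held the highest level of ids1 and of sid1 in each.

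Across the 6 libraries ids1 and sid1 did not follow each other, with Pearson's r of 0.08 between their log2(CPM + 0.5) values, given as a description over libraries that share genotype and replicate number. Of the 19564 tested genes with a mean of at least 1 CPM, the one most like ids1 was Zm00001d022553 (r = 0.996), a gene of low level with means of 0.510 ± 0.280 CPM (WT) and 1.68 ± 0.672 CPM (tls1). It passed the minimum of 1 CPM only through the tls1 libraries, so its likeness to ids1, which was also higher in tls1, was favoured by that filter. The one most like sid1 was Zm00001d042436 (r = 0.991), with means of 42.7 ± 1.87 CPM (WT) and 41.4 ± 3.06 CPM (tls1), each ± SD over 3 libraries. Of the 19564 genes, 74 reached an r of 0.95 with ids1 and 30 with sid1. The number to be reached by unrelated genes over 6 libraries was not computed, so neither these counts nor the named genes show shared regulation.

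Other genes of the spikelet pathway could be looked up by symbol only in part. Of the 5 miR172 genes listed, which encode the microRNA that pairs with ids1 and sid1 RNA, 4 were in the table, including MIR172e, the tasselseed4 gene. Of the 12 genes listed for miR156, a microRNA of the juvenile phase, 11 were. All of them had 0 reads in every library. How reads were assigned to these rows is not known, and the RNA was enriched for poly-A tails. The counts therefore do not show that the microRNAs were absent from the tissue. None of the 19 symbols of the spikelet pathway, 19 of spikelet and floral MADS genes, 12 of other AP2 genes or 13 of meristem genes could be tied to an identifier, so these genes, the meristem markers and the mutated gene are not analysed here. Of 13 green tissue markers, the 7 encoded in the plastid were found, and their summed level was low and overlapped, at 4.88, 2.39 and 3.35 CPM in WT 1, 2 and 3 and 1.30, 3.61 and 4.71 CPM in tls1 1, 2 and 3. How well the selection of poly-A tails kept plastid RNA was not tested, so this level does not measure the green tissue present. Mitochondrial reads made up 0.187% to 0.319% of the WT libraries and 0.135% to 0.316% of the tls1 libraries. The part of these shares in the results on ids1 and sid1 was not tested, and in whole meristems fewer cells of a type and less RNA per cell cannot be told apart.

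The ids1 and sid1 values were recomputed under 17 other fits. The log2 fold change of ids1 stayed between 0.10 and 0.17, with adjusted p-values from 0.244 to 0.659. That of sid1 ran from -0.23 to 0.0065, with adjusted p-values from 0.298 to 0.979. The 95% intervals of these fits are not adjusted. The ids1 interval lay above no change with upper quartile scaling, the tightened filter, WT 2 left out, or the block without pair 1. In the other fits it included no change. The sid1 interval excluded no change only in the block without pair 1. No fit called either gene at an adjusted p under 0.05.

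**Figure D5:**
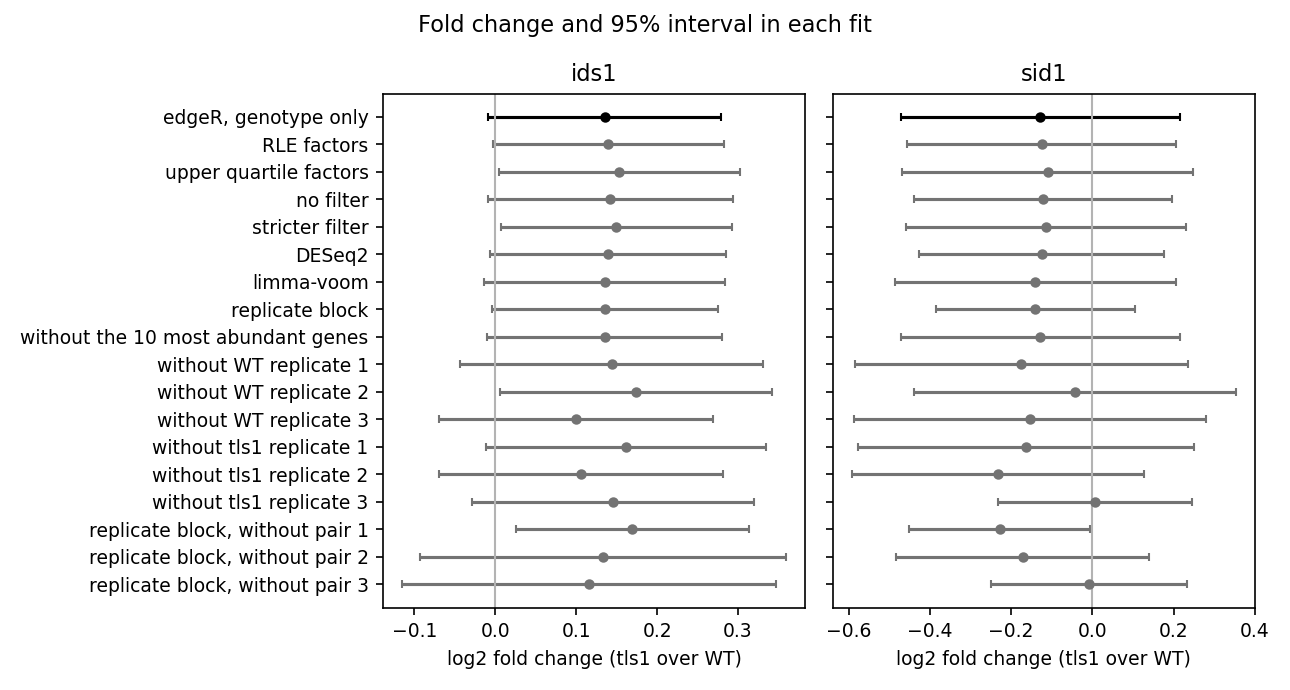
Log2 fold change of tls1 over WT (x axis) with its 95% interval for ids1 (left) and sid1 (right) in the edgeR fit with genotype only (black) and in 17 other fits (grey, y axis). All ids1 values lie between 0.10 and 0.17, and sid1 lies nearest to 0 in the fits without tls1 3 or without pair 3.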

How the data were processed

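The values the authors deposited are unnormalized counts of reads for 45953 features in 6 libraries. The submitters' processing notes name cutadapt for trimming adapters and STAR for alignment. None of program versions, counter, handling of strand or genome build is given in the sources used here. Reads of overlapping or near-identical genes could therefore be misassigned, ids1 and sid1 included.

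CPM is a count divided by the library's sum, times 1000000. The whole table was fitted with edgeR 4.0.16 under R 4.3.3 (quasi-likelihood F test, TMM factors, filterByExpr, genotype only, Benjamini-Hochberg adjustment over 23349 genes), and bd1 did not pass the filter. Exact permutation tests used Python 3.11.15. Alternatives were scaling by RLE or by upper quartiles, dropping or tightening the filter (1 CPM in 3 libraries), DESeq2 1.42.0, limma-voom (limma 3.58.1), the replicate block, leaving out each library or pair, and removing the 10 most abundant genes. The fit was tested on simulated data.

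Deviations from the genotype means correlated between same-numbered libraries at 0.378, 0.580 and 0.700 for numbers 1, 2 and 3. Correlations between libraries of different number were not computed, so these values do not show that same-numbered libraries are more alike. The libraries were paired by their number for the values within pairs and for the block. No 2 libraries agreed within sampling noise (mean chi-square per gene at least 43.9). That measure was 43.9 in pair 2 and 46.3 in pair 3. In pair 1 it was 127, while WT 1 against tls1 3 gave 85.0 and tls1 1 against WT 2 gave 71.7. By this measure the data did not bear out pair 1, whose values rest on the number alone. The genes, lists and tests were chosen with earlier results of these data known. Genes most like ids1 and sid1 were named by the highest r, 1 each, and list members wherever the symbol could be found.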

Additional observations from a re-analysis of the deposited data

How the results depend on the processing

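The fit with the replicate block gave a log2 fold change of 0.14 for ids1 (edgeR adjusted p = 0.264) and -0.14 for sid1 (edgeR adjusted p = 0.472) and changed no call of these genes. Leaving out 1 library gave from 0.10 to 0.17 for ids1 and from -0.23 to 0.0065 for sid1, whose sign turned without tls1 3, and from 2.14 to 5.20 percentage points for the share of ids1 in the reads of the pair. With the replicate pairs kept, the mean difference in share was 4.15 points (exact sign-flip permutation p = 0.25, the smallest possible). Over the whole table edgeR called 1 gene. The count was 13 with no filter, 2 with limma-voom, 1250 with DESeq2 and 162 with the replicate block. The block fitted on fewer libraries called 433 genes when pair 1 was dropped, 159 when pair 2 was and 52 when pair 3 was, and leaving out 1 library gave from 0 to 9. For these counts the cause was not tested. With TMM-scaled CPM, the genes most like ids1 and sid1 were others, and the r of those named was 0.989 for each. No ratio of bd1 to the other genes was computed, since 5 of its 6 counts were 0. bd1 entered only the fit with no filter (edgeR adjusted p = 0.662), whose fold change rests on 1 read and is not given. Counting error of ids1 and sid1 was smaller than the spread between libraries. Depth limits the statements on bd1, sid1 in pair 2 and the shares of tls1 1 and tls1 2 against WT 1. Whether depth limited the counts of the microRNA genes was not tested.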

Other observations

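Around sid1, 3 of the 10 nearest tested rows of the table (5 on each side) had all tls1 libraries above all WT libraries, against 11.3% of all tested genes. The log2 fold changes of the 10 ran from -0.29 to 1.23 with a median of 0.31, and 0 were called by edgeR (2 at an unadjusted p under 0.05, against 16.5% of all tested genes). Around ids1 the 10 rows had a median of -0.02, with 0 genes separated upward in this way, and around bd1 a median of 0.05, with 2. Around each of bd1, ids1 and sid1, 1 row had all tls1 libraries below all WT libraries. The share of all tested genes with that pattern was not computed. At an unadjusted edgeR p under 0.05 there were 2 rows around ids1 and 3 around bd1. All these neighbouring rows were looked at after the values of the genes had been seen. Row order stands for position only as far as the table follows it.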
